A study of Drosophila melanogaster with 4 samples.

Results

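Mau2 and wapl are 2 of the 2860 genes listed in 4 deposited tables from ovaries of Drosophila melanogaster, and they act on opposite sides of the cohesin cycle. They were chosen by identifier, FBgn0038300 for Mau2 and FBgn0004655 for wapl, under a rule that uses no measured value. Ovaries came from NSUN2 KO flies and from wild-type (WT) flies, both of the W1118 strain. The allele and the age of the flies are not stated in the labels. NSUN2 is an enzyme that places 5-methylcytosine (m5C) on tRNAs and mRNAs. Each genotype had 1 library of ribosome footprints, which are stretches of mRNA, here selected at 28 to 30 nt, that nuclease cannot reach inside a ribosome, and 1 library of poly(A) mRNA. The tables also give the highest m5C level of each gene. With 1 library per group, no difference between the genotypes had a replicate check, and none was tested.

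Cohesin is a ring-shaped protein complex that holds sister chromatids together and folds chromosomes into loops. The Mau2 protein works with Nipped-B to load the ring onto DNA, and the wapl protein, together with pds5, opens the ring and releases it. In the fly ovary, germline cells use cohesin to hold chromosomes together through meiosis.

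The RefSeq gene table (Release 6 plus ISO1 MT) pairs FBgn0038300 with Mau2 on chromosome arm 3R. It lists wapl on chromosome X without an FBgn identifier, so the name of FBgn0004655 rests on the choice of genes. In that table the neighbouring gene CG6654 overlaps the end of Mau2 by 71 bp, and 0 genes overlap wapl. The labels do not say whether strand was used in counting, so reads from that shared stretch cannot be assigned with certainty. The dm3 build of the deposited tables differs from the build of the gene table, and no positions are given for that reason.

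The deposited values are divided by library depth and by gene length under an unnamed scaling, TPM or a kind of FPKM. They retain the steps of whole reads. Recovered reads over the listed genes came to 2521126 in the KO footprint library and 1323478 in the WT footprint library. In mRNA they came to 12152829 in the KO library and 4753778 in the WT library. The value of a single read showed the KO libraries to be the deeper ones, by 2.01-fold in footprints and 2.58-fold in mRNA. These reads are lower limits, because a factor shared by the reads and the length of a gene is lost. Intervals below are 95% counting intervals from these reads and cover counting error only, because each group has 1 library. Without molecular identifiers several reads can stem from 1 molecule, so the intervals can be too narrow even for counting error. Reads that are too low through a lost factor act the other way and make them too wide. Neither the targeted gene nor any of 27 marker genes of ovary cell types and of neighbouring tissues was paired with an identifier here, so the knockout and the tissue label were not checked.

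The footprint value of Mau2, the loading factor, was 21.4 in the KO library (18.8 to 24.3), resting on at least 242 reads. It was 26.6 in the WT library (22.5 to 31.2), resting on at least 149 reads. Both values lay below the median of the listed genes, which was 27.9 in KO footprints and 30.1 in WT footprints. The Mau2 mRNA value was 34.0 in the KO library (32.5 to 35.5) from at least 2083 reads, and 28.2 in the WT library (26.1 to 30.4) from at least 670 reads. The KO value was therefore the lower one in footprints and the higher one in mRNA, and the intervals of the genotypes overlapped in footprints and not in mRNA. In rank, Mau2 messages were ordinary for the listed genes: 50.3% of them had a lower mRNA value in the KO library and 41% in the WT library.

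The wapl gene, which encodes the release factor, had more footprints and more mRNA per length than Mau2 in each of the 4 libraries, with no overlap of their intervals. Its footprint value was 89.3 in the KO library (86.0 to 92.6) from at least 2774 reads, and 78.9 in the WT library (74.6 to 83.5) from at least 1219 reads. Its mRNA value was 64.4 in the KO library (63.3 to 65.5) from at least 12760 reads, and 63.3 in the WT library (61.6 to 65.2) from at least 4862 reads. The wapl values of the genotypes were thus apart in footprints and nearly the same in mRNA. They stood at 3.20 times the median of the listed genes in KO footprints and 2.62 times in WT footprints, and at 1.92 times in KO mRNA and 1.89 times in WT mRNA.

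**Figure D1:**
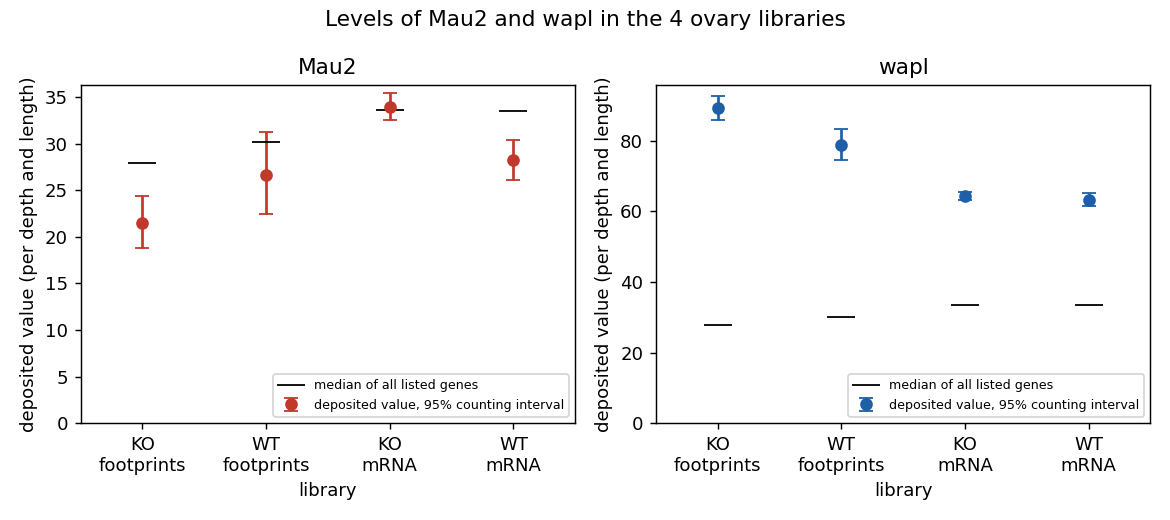
Deposited values of Mau2 (left) and wapl (right), scaled by the authors to depth and gene length, in the 4 libraries, with 95% counting intervals as bars and the median of the 2860 listed genes as dashes. Mau2 is lower in KO than in WT footprints (21.4 and 26.6) and higher in KO than in WT mRNA (34.0 and 28.2), while wapl is higher in KO than in WT footprints (89.3 and 78.9) at close mRNA values (64.4 and 63.3).

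The first comparison asked whether the abundance of the 2 messages differed between the genotypes. Mau2 mRNA was 1.20-fold higher in KO than in WT ovaries (1.10 to 1.32), a log2 difference of 0.27 on the scale of log2(value + 0.1). For wapl the ratio was 1.02 (0.98 to 1.05), so a difference in mRNA was not detectable beyond counting error at this depth. With both libraries scaled to the same upper quartile, the wapl log2 difference in mRNA was 0.0717 with an interval above 0, against 0.0237 as deposited. Neither gene reached a 2-fold difference, which 1.71% of the listed genes passed upward and 1.61% downward. A counting interval above equality, as Mau2 had, was common, at 34.7% of the 2854 genes with a mean of at least 50 reads. The Mau2 difference stood above that of 80.9% of those genes and the wapl difference above that of 53%, beside a range from -0.19 to 0.20 for the middle portion between the quartiles. In whole ovaries, fewer cells of a type and less RNA per cell cannot be told apart.

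The second comparison asked whether ribosome occupancy differed. Mau2 footprints stood at 0.808 times the WT value in KO ovaries (0.655 to 0.996), a log2 difference of -0.31. The upper end of this interval nearly reached equality, and with median of ratios scaling the log2 difference was -0.25 with an interval that held 0. For wapl, footprints were 1.13-fold higher in KO ovaries (1.06 to 1.21), a log2 difference of 0.18, which was 0.09 with an interval that held 0 when both libraries were scaled to the same total. Here too neither gene was 2-fold apart, against 2.03% of the listed genes upward and 5.42% downward. Among the 2443 genes with enough footprint reads, 31.6% had an interval below equality, as Mau2 did, and 25.7% had one above it, as wapl did. Between the quartiles of those genes the log2 differences ran from -0.36 to 0.25, and both genes lay within that range.

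Mau2 was thus among the genes whose mRNA and footprint values differed in opposite directions. A positive mRNA difference with a negative footprint difference was found in 617 of 2441 genes (25.3%), and 113 of the 2441 were at least as far out as Mau2 in both, Mau2 included. With counting intervals that excluded equality in both assays, 10.4% had higher mRNA and lower footprints in KO ovaries. For wapl, higher footprints stood beside an mRNA interval that held equality, a combination met in 6.6% of the 2441 genes.

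**Figure D2:**
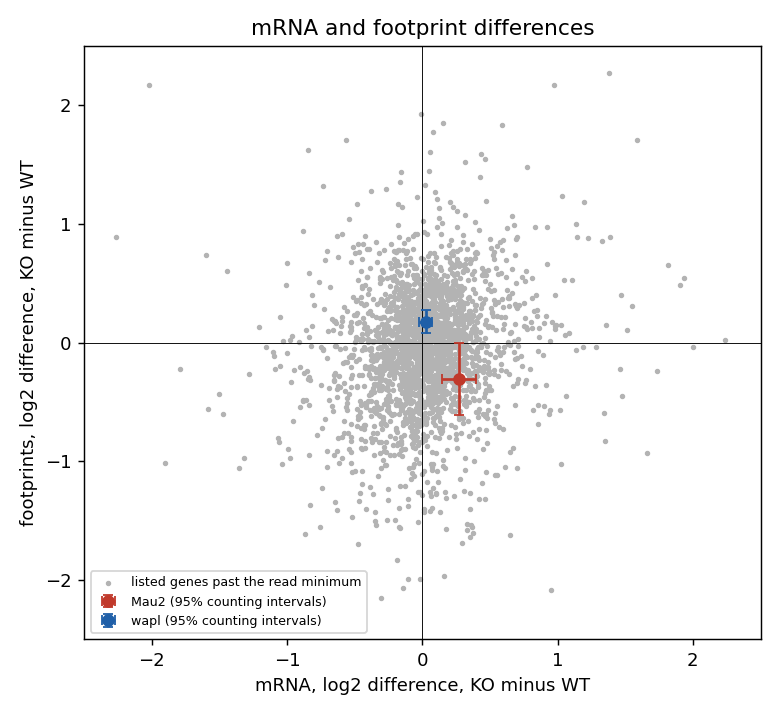
Log2 difference of KO minus WT in mRNA (horizontal axis) and in footprints (vertical axis) for the 2441 listed genes past the read minimum in both assays, 7 of which lie outside the axes, with 95% counting intervals for Mau2 and wapl. Mau2 lies right of and below the centre at 0.27 and -0.31, and wapl lies above it at 0.02 and 0.18, both inside the cloud of genes.

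The third comparison set footprints against mRNA of the same gene. This ratio is called translation efficiency, and because the assays were scaled separately only its order among genes and its difference between genotypes were read. The Mau2 ratio was 0.632 in KO ovaries (0.554 to 0.722) and 0.942 in WT ovaries (0.789 to 1.13), with no overlap of the intervals. The wapl ratio was 1.39 in KO ovaries (1.33 to 1.44) and 1.25 in WT ovaries (1.17 to 1.33), and its intervals did not overlap either, by a narrow margin. Over 2441 genes the median ratio was 1.05 in KO ovaries and 1.08 in WT ovaries. Mau2 stood above 30.8% of the genes in KO ovaries and above 45% in WT ovaries, whereas wapl stood above 61% in KO ovaries and above 55.5% in WT ovaries. In each genotype wapl stood above the median and Mau2 below it, but the Mau2 interval in WT ovaries held that median. The 2 genes stood further from each other in KO ovaries. Such distances were common, since 57.8% of gene pairs were further apart in KO ovaries and 85% in WT ovaries.

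**Figure D3:**
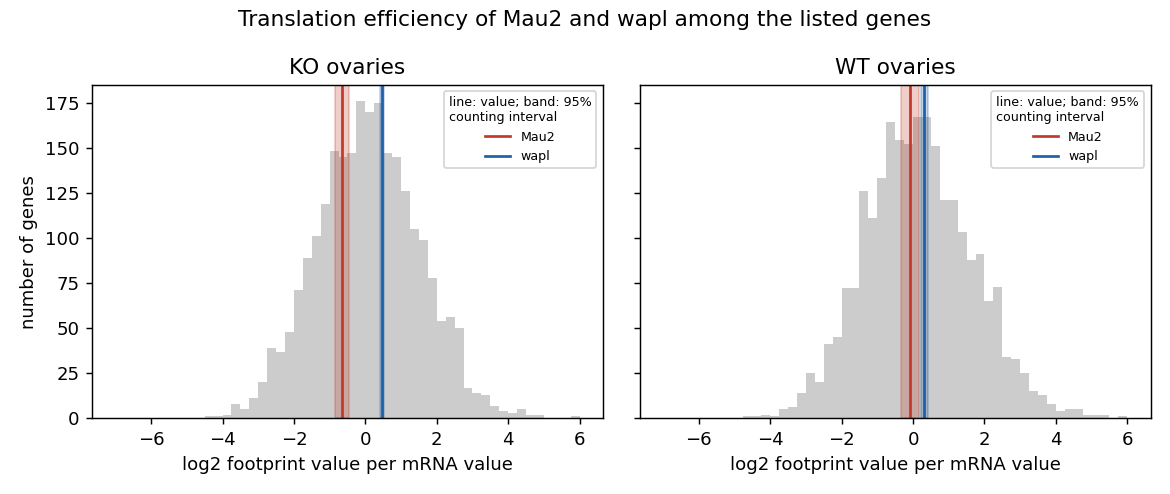
Number of listed genes (vertical axis, 2441 genes past the read minimum) by log2 footprint value per mRNA value (horizontal axis) in KO ovaries (left) and WT ovaries (right), with Mau2 and wapl as lines and their 95% counting intervals as bands. The lines stand 1.13 apart on the log2 scale in KO ovaries and 0.40 apart in WT ovaries.

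The log2 difference in translation efficiency, KO minus WT, was -0.58 for Mau2 (-0.90 to -0.26), so the KO ratio was 0.671 times the WT ratio. Of 2441 genes, 17.1% had a lower difference than Mau2, and 27.4% had a larger difference in either direction. For wapl the difference was 0.15 (0.05 to 0.26), a ratio of 1.11, and 77.7% of genes had a larger one in either direction. Intervals of translation efficiency lay below equality in 33.5% of genes and above it in 25.5%, so calls like those of Mau2 and wapl were frequent. A 2-fold difference was passed by 3.57% of the listed genes upward and 6.89% downward, and by neither of these genes. With the libraries scaled to the same total or to the same upper quartile, the wapl interval held 0, and that of Mau2 lay below 0 under each of the 5 alternatives tried. Changes of pseudocount leave these intervals as they are, so only the scalings could move them.

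Setting wapl over Mau2 within a library removes the library's scaling from the comparison. In footprints, the wapl value was 4.16 times the Mau2 value in the KO library (3.65 to 4.75) and 2.97 times in the WT library (2.51 to 3.52). In mRNA it was 1.90 times in the KO library (1.81 to 1.99) and 2.25 times in the WT library (2.07 to 2.43). The ratio of the release factor to the loading factor was therefore higher in KO than in WT footprints and lower in KO than in WT mRNA, with intervals that did not overlap in either assay. The log2 ratio differed between the genotypes, KO minus WT, by 0.49 in footprints (0.18 to 0.80), by -0.24 in mRNA (-0.38 to -0.11) and by 0.73 in translation efficiency (0.39 to 1.07). Such distances were ordinary between listed genes, since 47.5% of all pairs of genes past the read minimum were further apart in footprints, 60% in mRNA and 35.1% in translation efficiency.

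**Figure D4:**
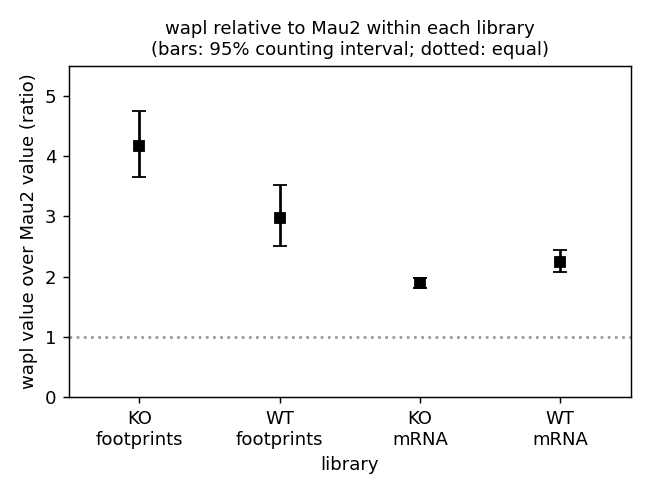
Ratio of the wapl value to the Mau2 value (vertical axis, linear from 0) within each of the 4 libraries (horizontal axis), with 95% counting intervals as bars and a dotted line at equality. The ratio is 4.16 in KO footprints and 2.97 in WT footprints, against 1.90 in KO mRNA and 2.25 in WT mRNA.

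The m5C levels of the 2 genes lay far apart. The highest listed level of wapl was 0.978, which ranked 5 of 2860, and that of Mau2 was 0.260, near the median of 0.269 over the listed genes. The sites, the sample and the coverage behind these fractions are unknown here, so they have no interval and cannot be placed on the messages. The level is the same in all 4 tables and so gives no comparison between the genotypes. Of the 2 genes, the one with the higher level was the one with the smaller differences between genotypes in mRNA, footprints and translation efficiency. Whether level and difference go together was not tested, and 2 genes cannot show it.

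Among the 94 genes with a listed level of at least 0.9, which include wapl, the median log2 difference of KO minus WT was 0.02 in mRNA. It was -0.04 in footprints and -0.11 in translation efficiency over the 82 with enough reads. The medians over all genes past the read minimum were -0.04 in footprints and -0.06 in translation efficiency. Translation efficiency was at least 2-fold lower in 7 of these 82 and at least 2-fold higher in 0. The shares over all 2860 listed genes were 6.89% and 3.57%, but without a read minimum, so they are not a like comparison. With a limit of 0.8, translation efficiency was at least 2-fold lower in 16 of 194 genes past the read minimum and at least 2-fold higher in 5. The wapl difference of 0.15 was number 24 from the top of the 82. Among 467 genes with levels from 0.2 to 0.3 and enough reads, which include Mau2, the median difference in translation efficiency was -0.04, and the Mau2 difference of -0.58 was number 74 from the bottom.

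**Figure D5:**
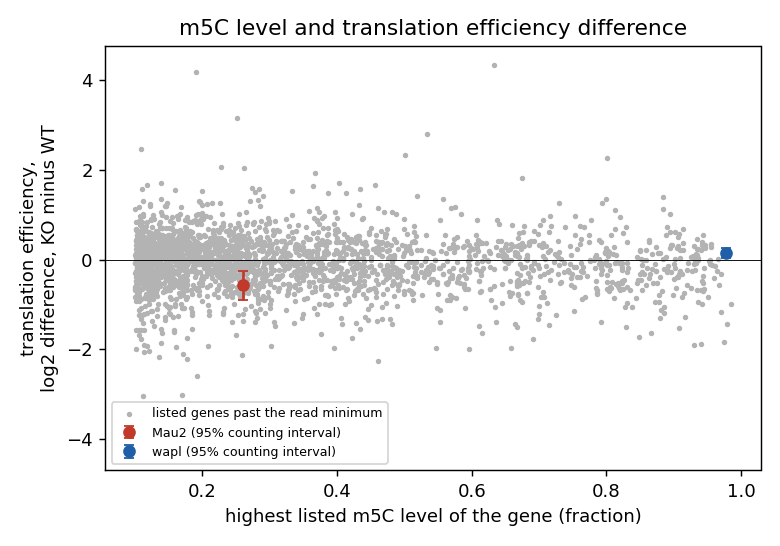
Highest listed m5C level (horizontal axis, fraction) and log2 difference in translation efficiency, KO minus WT (vertical axis), for 2441 listed genes past the read minimum, with 95% counting intervals for Mau2 and wapl. Mau2 lies at a level of 0.260 and a difference of -0.58, and wapl lies near the right edge at 0.978 and 0.15.

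Likeness to other genes was measured as the distance between log2(value + 0.1) levels over the 4 libraries. The gene closest to Mau2 was MED1, a subunit of the Mediator complex that links transcription factors to RNA polymerase, at a distance of 0.17. Of the 2859 other listed genes, 0 were closer to Mau2, including those without a symbol. The MED1 footprint value was 21.7 in the KO library and 26.0 in the WT library, and its mRNA value was 35.5 in the KO library and 31.4 in the WT library. The MED1 log2 difference in mRNA was 0.18 (-0.02 to 0.37), from at least 858 reads in the KO library and 294 in the WT library. The recovered WT reads of MED1 were fewer in mRNA than in footprints, where they came to 340. Over the listed genes the WT mRNA library held more reads than the WT footprint library. A factor lost from the MED1 mRNA reads would make this interval too wide, so its hold on 0 was not set against Mau2. The MED1 log2 difference in translation efficiency was -0.44 (-0.71 to -0.17), under the same limit, and the value itself lay within the Mau2 interval. The next genes with a symbol, the ubiquitin ligase gene Herc4 and the trehalase gene Treh, were much further away, at 0.94 and 1.03.

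For wapl the closest gene with a symbol was snama, which encodes a ubiquitin ligase of the RBBP6 family, at a distance of 0.68, and 67 listed genes without a symbol were closer. The snama footprint value was 74.9 in the KO library and 62.4 in the WT library, and its mRNA value was 50.7 in the KO library and 47.7 in the WT library. AMPKalpha, whose protein is the catalytic part of the AMP-activated kinase, and Coa7, a cytochrome c oxidase assembly factor, followed at 1.36 and 1.92. With each gene centred on its own mean, which leaves only the pattern over the libraries, MED1 and snama stayed the closest genes with a symbol, at 0.14 and 0.11. Only 18 other genes had a symbol, so this order says little about genes in general.

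Further genes of chromatin and transcription that carried a symbol were Asx and pps. Asx, a Polycomb group gene, had 5.20 in KO footprints and 7.09 in WT footprints, from at least 31 and 21 reads. From these lower limits, the log2 difference of Asx in translation efficiency was -0.06 with a wide interval, -0.87 to 0.74. A factor lost from the reads would make this interval too wide. The value of -0.06 itself lay above the Mau2 interval, which ended at -0.26, but no difference from Mau2 was read from so few recovered reads. The mRNA value of Asx was 14.2 in the KO library and 18.6 in the WT library, a difference opposite in sign to that of Mau2. The mRNA value of pps was 20.8 in the KO library and 17.4 in the WT library, and its log2 difference in translation efficiency was -0.24 (-0.42 to -0.05). Of 34 genes listed for cohesin, its regulation, sister separation, meiotic cohesion and condensin, only Mau2 and wapl were paired with values, so the other members of the cohesin pathway were not analysed here.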

How the data were processed

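The authors deposited, for each library, a signal per gene scaled to depth and length, and a fraction named in the file headers as the maximum m5C level. Per the submitters' processing notes, reads were handled with cutadapt, TopHat2 and HTSeq on build dm3; the notes as held here give no versions or parameters, not even for reads that map to several places. Per the labels' protocols, footprints came from micrococcal nuclease digestion and the monosome peak, and the mRNA kit keeps strand. Nuclease base preference can move footprint values between genes.

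Values were compared as deposited, as log2(value + 0.1), in Python 3.11.15 with scipy 1.17.1. Within an assay the ratio of both libraries equals a ratio of whole reads times 1 constant. The constant was taken at which KO and WT reads were equally often multiples of small primes: the number of reads was even for 42.3% of genes in KO and 44.3% in WT footprints, and for 43.4% in KO and 41.6% in WT mRNA. Reads and lengths are the smallest whole numbers that give both values. They were found for 2857 genes in footprints and 2860 in mRNA. Tested on simulated data, reads were exact for 83.4% of the 2855 footprint genes and for 85.5% of the 2860 mRNA genes, and too low for the others. With the right constant they cannot be too high, because the smallest fitting numbers are taken. The simulation started from the recovered reads and lengths, so factors already lost from the real data were not tested. Intervals are Clopper-Pearson for single ratios, exact Poisson for values, and a sum of counting variances on the log scale for translation efficiency and gene ratios. Ranks of differences use genes with a mean of at least 50 reads. The minimum is applied to the recovered reads, so a gene can miss it through a lost factor and not through low coverage. For genes that pass with a lost factor the intervals are too wide, which can lower the shares of intervals that exclude equality.

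Alternatives were pseudocounts of 1 and none, 3 other scalings, a minimum value, a 1.5-fold rule and, added after seeing the data, a minimum of 200 mean reads and an m5C limit of 0.8. Genes named are Mau2, wapl, listed genes with a symbol and the 3 likest genes with a symbol. The RefSeq table paired 18 identifiers with a symbol. The rule for Mau2 and wapl uses no measured value, but these genes, the lists and the comparisons were all chosen with earlier results of these data known. No sequences were used here.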

Additional observations from a re-analysis of the deposited data

How the results depend on the processing

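No paired analysis was possible because the groups hold a single library each. Of 117 alternative values, 106 kept their direction and their side of equality or, as counts, stayed within 1.5 times. Many of these could hardly change, so the tally overstates how robust the results are. The scalings act on the KO libraries only, so values within WT ovaries stay the same. They also nearly cancel from the distance between wapl and Mau2 within KO ovaries. The intervals of KO over WT for single genes use no pseudocount. With the same total over the listed genes, the wapl log2 differences were 0.0936 in footprints and 0.0857 in translation efficiency, both with intervals that held 0. With the same upper quartile, wapl translation efficiency was 0.0959 with an interval that held 0, and wapl mRNA was 0.0717 with an interval above 0. With median of ratios, the Mau2 footprint difference was -0.25 with an interval that held 0. Each scaling shifts every gene of an assay equally, by -0.0834 in KO footprints for the same total and by less elsewhere, and those intervals ended closer to 0 than the shift. The log2 translation efficiency of wapl within KO ovaries was 0.40 with the same total and 0.53 with median of ratios, against 0.47. Across the 5 alternatives the Mau2 difference ran from 0.25 to 0.32 in mRNA and from -0.64 to -0.51 in translation efficiency, and these 2 results kept their side of equality. With 1.5-fold in place of 2-fold, which admits smaller differences, 171 listed genes were higher and 164 lower in mRNA, 254 and 435 in footprints, and 314 and 521 in translation efficiency. The ratio of wapl to Mau2 and the m5C limit of 0.8 were chosen after seeing the data; with the lower limit the median difference in translation efficiency was -0.19. A minimum of 200 mean reads, also added after seeing the data, left every count of intervals that exclude equality within 1.5 times, for example 585 genes lower in translation efficiency against 817. Both genes exceed the minimum value of 1, so that filter leaves their values as they are. Depth limits Mau2 footprints most, with at least 149 reads in WT ovaries.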

Other observations

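The length by which each gene was scaled came out of the same step as the reads, in footprints in a unit taken to be the codon. For Mau2 it was 632 codons, or 1896 nt, beside 2096 nt in mRNA, so 200 nt of the scaled mRNA lay outside the coding length. For wapl it was 1741 codons, or 5223 nt, beside 6773 nt in mRNA, which leaves 1550 nt. Over 2441 genes the medians were 1929 nt and 2608 nt, so wapl is a long gene by both measures and Mau2 is not. The lengths are lower limits for the same reason as the reads. The coding length was at most the mRNA length in 85.9% of these genes, and a factor lost from the mRNA length can turn this order round.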
